A study of Homo sapiens and Mus musculus with 12 samples.

Results

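The MAP kinase phosphatases followed here were 10 genes: DUSP1, DUSP2, DUSP4, DUSP5, DUSP6, DUSP10, DUSP16, PTPN5, PTPN7 and PTPRR, with the mouse genes of the same symbol. They were picked by name as dual-specificity and kinase-interaction-motif (KIM) tyrosine phosphatases of ERK, p38 and JNK; the rule itself uses no measured value, but earlier results of these data were known when it was written. All 10 were found among the 63677 human and the 47729 mouse gene identifiers of the count data. RNA-seq was performed on human MDA-MB-231 cells, a triple-negative breast cancer line, and on the mouse mammary carcinoma line 4T1, both labelled wild type and grown in serum-containing medium. The cells received 1 μM ponatinib, which inhibits several tyrosine kinases, or DMSO, its solvent, for 24 h, and each of the 4 groups had 3 libraries. The sources used here do not say whether the replicates were separate cultures, so the tests measure the spread between these libraries, which may be technical. Each group is 1 established line at 1 dose and 1 time point.

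MAP kinases are switched on by phosphorylation of a threonine and a tyrosine in their activation loop, and the dual-specificity phosphatases (DUSPs) remove both phosphates, whereas the KIM phosphatases PTPN5, PTPN7 and PTPRR remove the tyrosine phosphate. Many DUSP genes are themselves transcribed when MAP kinases are active, so that their products close a negative feedback loop, and their mRNAs are short-lived.

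Total counts per library were 15012884 to 17301760 for MDA-MB-231 and 17800675 to 18951493 for 4T1 cells. Levels are given as CPM, the gene's reads per 1000000 reads of the TMM-scaled total, and a gene was called at a Benjamini-Hochberg adjusted p-value under 0.05 in edgeR's quasi-likelihood test of its line. Markers of epithelial and of mesenchymal cells were both present in each line. In DMSO, MDA-MB-231 had means of 890 CPM for the keratin gene KRT8, 6.44 CPM for EPCAM and at most 1 count per library for the cadherin gene CDH1, beside 1288 CPM for VIM and 0.128 CPM for CDH2, 2 mesenchymal markers. In 4T1, Krt8 had 2389 CPM, Cdh1 831 CPM and Epcam 2.86 CPM. Of the mesenchymal markers there, Vim had 3257 CPM, Fn1 3414 CPM, Zeb1 93.2 CPM and Cdh2 0.0931 CPM. The label of an epithelial cell was thus met in part by these markers. In all 4 groups, replicate 1 differed more from replicates 2 and 3 than those did from each other. The chi-square per gene was 8.88 to 16.2 for the pairs with replicate 1 and 2.98 and 3.93 for the others in MDA-MB-231, and 8.96 to 15.5 against 5.27 and 7.07 in 4T1. The count of members called higher in MDA-MB-231 rests in part on such a library, as given below for DUSP10.

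In MDA-MB-231, DUSP2, DUSP4, DUSP5 and DUSP6 fell under ponatinib, by 2.90-fold to 6.57-fold, and DUSP1 rose 1.41-fold. DUSP10, DUSP16 and PTPRR did not pass the test, and PTPN5 and PTPN7 were barely detected. Thus 4 of the 8 tested members were called lower, where 26.8% of the 14610 tested genes were, and 1 was called higher, where 27.2% were. The median log2 fold change of the 8 was -0.71, beside 0.015 over all tested genes. In 5 of the 8 the 3 ponatinib libraries lay entirely outside the range of the DMSO libraries, as they did for 60.4% of all tested genes.

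In 4T1, Dusp1, Dusp4, Dusp5, Dusp6, Dusp10, Dusp16, Ptpn5 and Ptpn7 fell, and none of the 10 members rose. That made 8 of 9 tested members lower, where 29.4% of the 13286 tested genes were, and 0 higher, where 29.5% were. At an unadjusted p-value under 0.05 edgeR likewise gave 8 members, all lower, where 8372 of the 13286 tested genes passed in either direction. DESeq2 also called 0 members higher. Ptpn7 passed the filter on low counts only through its DMSO libraries, and without it the count was 7 of 8. The median log2 fold change of the 9 was -0.90, beside a median of 0.0 over all tested genes, and the groups did not overlap in 8 of the 9 (63.4% of all tested genes). Ptpn7 is included in both values, and its fall followed from the way it passed the filter. The RNA came from whole cultures, so a lower level in every cell cannot be told apart from fewer cells that express the gene.

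**Figure D1:**
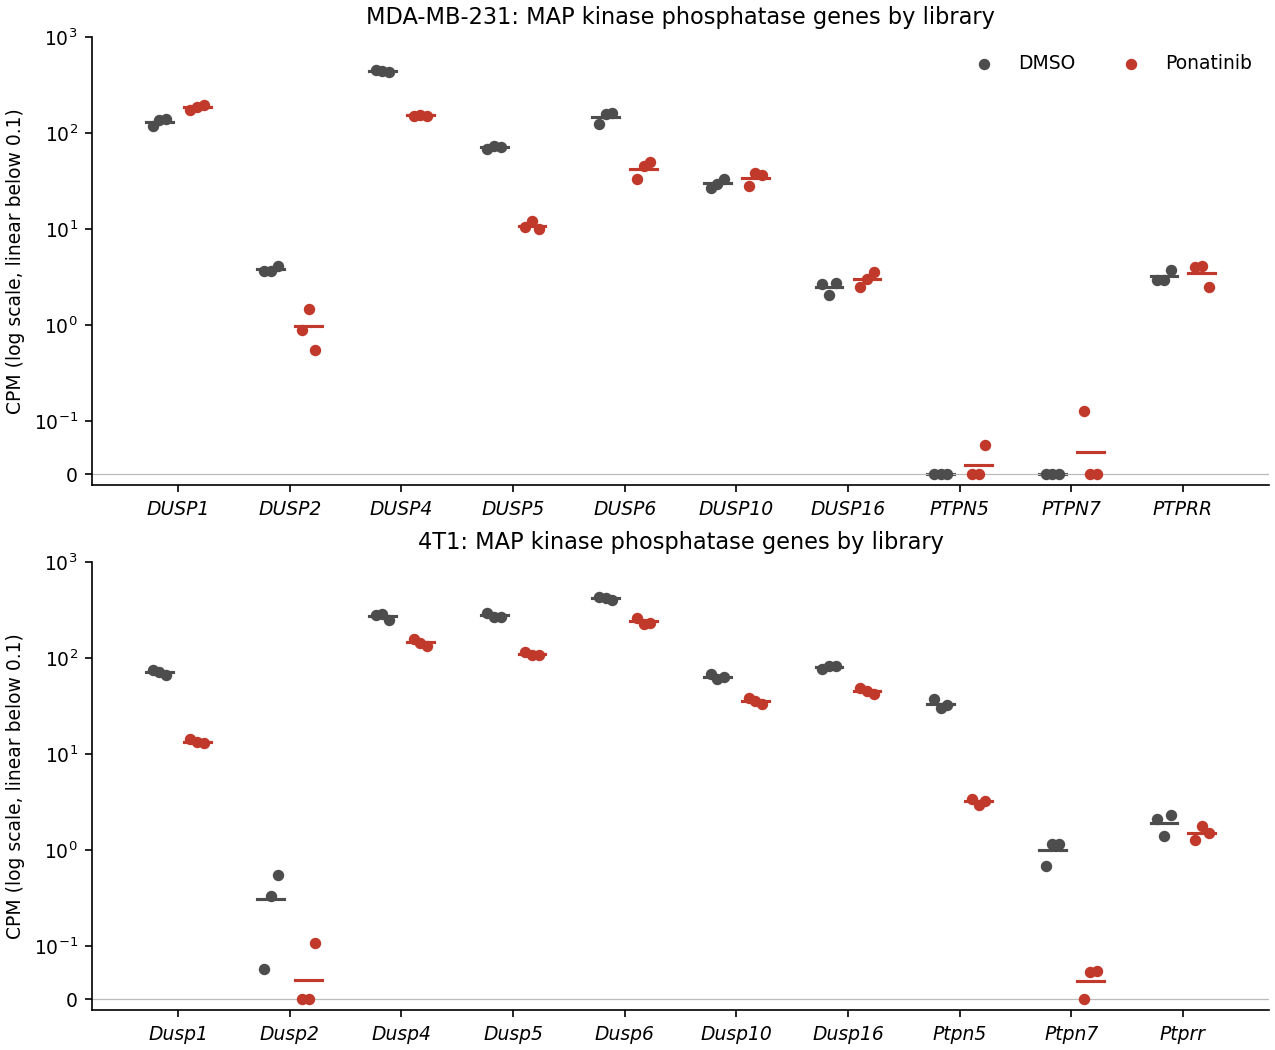
CPM of the 10 MAP kinase phosphatase genes in each library (y axis, log scale above 0.1 CPM and linear below), MDA-MB-231 above and 4T1 below; each point is 1 library in the order of the replicate numbers, grey for DMSO and red for ponatinib, and each bar is the mean of 3 libraries. The ponatinib points of DUSP1 lie above those of DMSO in MDA-MB-231 (171 to 195 against 117 to 139 CPM) and below them in 4T1 (12.9 to 14.2 against 65.7 to 75.2 CPM).

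DUSP1 encodes a nuclear phosphatase of p38, JNK and ERK and is an immediate early gene that growth factors and cell stress induce. Its transcript lies at chr5:172768096-172771195 (minus strand, GRCh38) in human and at chr17:26724564-26727493 (minus strand, GRCm39) in mouse. In MDA-MB-231, DUSP1 measured 117, 136 and 139 CPM in the DMSO libraries and 171, 186 and 195 CPM in the ponatinib libraries. All 3 ponatinib libraries were above all 3 DMSO libraries, with means of 131 ± 12.1 and 184 ± 11.96 CPM (SD, n = 3 each) and a log2 fold change of 0.49 (SE 0.088, adjusted p = 0.000584). This rise is under 1.5-fold, the size that the study required beside a p-value under 0.05. In 4T1, Dusp1 measured 75.2, 71.3 and 65.7 CPM with DMSO and 14.2, 13.2 and 12.9 CPM with ponatinib. The groups were far apart there in the opposite direction, at 70.7 ± 4.78 against 13.4 ± 0.661 CPM (SD, n = 3 each), a 5.27-fold fall (log2 fold change -2.40, SE 0.094, adjusted p = 6.5e-11).

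DUSP1 moved in opposite directions in the 2 lines, and the difference between its log2 fold changes (4T1 minus MDA-MB-231) was -2.89 (SE 0.127, adjusted p = 1.92e-11, edgeR interaction of line and treatment). The promoters of the 2 species are shown as the 250 bases before the transcription start, read 5′ to 3′. Their part in the difference was not tested. The human sequence is that of RefSeq at chr5:172771196-172771445 (minus strand, GRCh38.p14), and the mouse sequence was read from GRCm39 at chr17:26727494-26727743 (minus strand), before the canonical GENCODE start. Capitals mark matches to the cAMP response element (CRE) TGACGTCA, to which CREB and ATF factors bind, and to its half-site TGACG on either strand.
DUSP1 human: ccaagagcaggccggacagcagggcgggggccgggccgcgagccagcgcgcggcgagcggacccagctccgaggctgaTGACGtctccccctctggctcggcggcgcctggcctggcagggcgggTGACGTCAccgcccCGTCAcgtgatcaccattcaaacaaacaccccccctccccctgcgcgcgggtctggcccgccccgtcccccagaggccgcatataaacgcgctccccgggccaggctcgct
Dusp1 mouse: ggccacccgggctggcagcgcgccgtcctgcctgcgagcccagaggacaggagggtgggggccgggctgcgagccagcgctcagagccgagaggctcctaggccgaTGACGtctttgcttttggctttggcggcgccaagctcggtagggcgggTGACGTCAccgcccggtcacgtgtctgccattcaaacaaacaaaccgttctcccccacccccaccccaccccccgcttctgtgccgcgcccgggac
Counted back from the start, a complete CRE began at -125 in human and at -96 in mouse, in both cases within an identical run of 22 bases, the longest that the windows shared. Further half-sites outside the CRE began at -172 and -111 in the human window, and at -144 in the mouse window. The CRE also holds a half-site on each strand. A complete CRE was found in 1.85% of 35116 human and 2.44% of 21770 mouse promoter windows of 300 bases (250 before and 50 after the start, for protein-coding genes in mouse), and a half-site in 24.55% and 22.62%. Such a match is a description of the sequence and does not show that a factor was bound in these cells.

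DUSP2, a nuclear phosphatase of ERK and p38 best known from activated leukocytes, was a low-abundance transcript. In MDA-MB-231 it had 55, 56 and 65 counts in the DMSO libraries (3.65, 3.63 and 4.09 CPM) and 14, 23 and 10 counts in the ponatinib libraries (0.883, 1.47 and 0.548 CPM). Every ponatinib library was below every DMSO library, and the log2 fold change was -1.99 (SE 0.307, adjusted p = 0.000204). In 4T1 Dusp2 had 1, 6 and 10 counts with DMSO and 0, 0 and 2 with ponatinib, which did not pass the filter on low counts. The ranges overlapped there. Without the filter edgeR called it lower (log2 fold change -2.94, SE 1.16, adjusted p = 0.0334), whereas DESeq2 did not (adjusted p = 0.0899). In counts, the ratio of the summed counts per scaled total, 17 against 2, was 9.04 in favour of DMSO with a 95% Clopper-Pearson interval of 2.15 to 80.7 that covers counting error only.

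DUSP4, a nuclear phosphatase of ERK and JNK, was among the most abundant members in both lines. In MDA-MB-231 its level was 448, 440.2 and 431 CPM in the DMSO libraries and 151, 153 and 152 CPM in the ponatinib libraries. The replicates were close together and the groups well separated, with a log2 fold change of -1.54 (SE 0.069, adjusted p = 1.8e-08). In 4T1, where the transcript lies at chr8:35274442-35287048 (plus strand, GRCm39), Dusp4 measured 280.2, 285 and 245 CPM with DMSO and 159, 143 and 133 CPM with ponatinib. This fall was smaller, with a log2 fold change of -0.90 (SE 0.086, adjusted p = 6.28e-07), and the difference between the lines was 0.64 on the log2 scale (SE 0.112, adjusted p = 0.000149).

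DUSP5 encodes a nuclear phosphatase that is selective for ERK. In MDA-MB-231, where its transcript lies at chr10:110497907-110511533 (plus strand, GRCh38), it measured 68.6, 72.3 and 71.0 CPM with DMSO and 10.4, 12.04 and 9.91 CPM with ponatinib. DUSP5 had the largest fall of the members in this line, 6.57-fold, with a log2 fold change of -2.72 (SE 0.101, adjusted p = 4.26e-09). In 4T1 its mouse counterpart was at 296, 267 and 267 CPM with DMSO and 114, 107 and 106 CPM with ponatinib. The groups were again apart, but the log2 fold change of -1.34 (SE 0.075, adjusted p = 2.54e-09) was closer to 0 than that of MDA-MB-231 by 1.37 (SE 0.117, adjusted p = 5.56e-08).

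The promoter window of mouse Dusp5 is shown since it was the only window of the members searched that held a CArG box, the element that serum response factor recognises. The 250 bases lie at chr19:53517282-53517531 (plus strand, GRCm39), and capitals mark a pair of adjacent CArG boxes and 1 CRE half-site.
Dusp5 mouse: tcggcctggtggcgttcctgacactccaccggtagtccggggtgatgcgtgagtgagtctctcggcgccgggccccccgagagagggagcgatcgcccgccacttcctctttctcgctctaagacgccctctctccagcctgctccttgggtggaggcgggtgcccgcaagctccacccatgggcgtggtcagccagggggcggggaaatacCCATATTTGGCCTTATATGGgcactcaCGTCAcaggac
The CArG boxes began at -38 and -28, and the half-site, on the opposite strand, began at -11. A CArG box was found in 1.54% of mouse and 1.29% of human windows. Windows of 8 human and 10 mouse members were searched for CRE, AP-1 (TGANTCA), ETS (CCGGAAGT) and CArG motifs on both strands. Human DUSP4 and DUSP5 were not analysed here. No member window held the ETS letters, present in 4.14% of human and 4.35% of mouse windows, and AP-1, present in 7.71% and 7.14%, was matched in mouse Ptprr alone. Besides DUSP1 and mouse Dusp5, windows of human PTPN7 and DUSP10 and of mouse Dusp4 and Dusp16 held a CRE half-site. Such a half-site was present in 24.55% of human and 22.62% of mouse windows.

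DUSP6 encodes a cytoplasmic phosphatase selective for ERK, and its transcript is widely used as a readout of ERK activity. It lies at chr12:89347235-89352501 (minus strand, GRCh38) in human and chr10:99099068-99103361 (plus strand, GRCm39) in mouse. MDA-MB-231 libraries had 122, 158 and 162 CPM with DMSO and 33.3, 45.0 and 49.3 CPM with ponatinib. Replicate 1 was the lowest of its group under both treatments, and all ponatinib libraries were below all DMSO libraries (log2 fold change -1.79, SE 0.145, adjusted p = 1.42e-06). The 4T1 libraries had 430.0, 421 and 395 CPM with DMSO and 260.4, 226 and 231 CPM with ponatinib, with a log2 fold change of -0.80 (SE 0.079, adjusted p = 8.6e-07). Dusp6 thus fell 1.74-fold in 4T1 against 3.46-fold in MDA-MB-231, a difference of 0.99 on the log2 scale (SE 0.173, adjusted p = 0.000128).

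The promoters of DUSP6, a gene that fell in both lines, are shown as well. A link between promoter motifs and the response was not tested. The windows of DUSP6 held none of the motifs searched and so have no capitals. They lie at chr12:89352502-89352751 (minus strand, GRCh38.p14) in human and chr10:99098818-99099067 (plus strand, GRCm39) in mouse.
DUSP6 human: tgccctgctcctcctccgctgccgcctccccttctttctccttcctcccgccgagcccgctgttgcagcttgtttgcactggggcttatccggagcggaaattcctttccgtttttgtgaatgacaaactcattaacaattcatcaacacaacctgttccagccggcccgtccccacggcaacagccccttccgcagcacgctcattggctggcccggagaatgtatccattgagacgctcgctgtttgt
Dusp6 mouse: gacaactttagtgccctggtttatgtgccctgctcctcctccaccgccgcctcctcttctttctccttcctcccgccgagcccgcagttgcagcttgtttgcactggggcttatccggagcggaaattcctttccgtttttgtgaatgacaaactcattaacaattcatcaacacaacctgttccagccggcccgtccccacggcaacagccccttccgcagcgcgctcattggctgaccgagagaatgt
The windows of DUSP6 shared an identical run of 137 bases, beginning at -189 in human and -164 in mouse, against the longest run of 22 bases in DUSP1. No other gene was compared in this way, and a relation of these runs to the response was not tested.

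DUSP10 and DUSP16 encode phosphatases that prefer JNK and p38 to ERK. In MDA-MB-231, DUSP10 measured 26.7, 29.5 and 33.0 CPM with DMSO and 28.2, 38.4 and 36.1 CPM with ponatinib. The ranges overlapped, and the log2 fold change of 0.20 (SE 0.126) had an adjusted p of 0.196. Ponatinib was above DMSO in 3 of 3 pairs of like-numbered libraries, and with the replicate number as a block the log2 fold change was 0.20 (SE 0.076, adjusted p = 0.029), which counts as called. Without ponatinib replicate 1, the lowest ponatinib library, it was 0.32 (SE 0.111, adjusted p = 0.0219). DUSP16 was at 2.65, 2.07 and 2.71 CPM with DMSO and 2.46, 2.99 and 3.56 CPM with ponatinib in this line. These ranges overlapped as well, with a log2 fold change of 0.28 (95% interval -0.22 to 0.79, adjusted p = 0.322).

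Both genes fell in 4T1. Dusp10 measured 67.9, 60.5 and 63.1 CPM with DMSO and 38.7, 35.6 and 33.1 CPM with ponatinib, and Dusp16 measured 77.4, 82.2 and 81.4 CPM with DMSO and 49.0, 45.2 and 41.8 CPM with ponatinib. The log2 fold changes were -0.84 (SE 0.087, adjusted p = 1.55e-06) for Dusp10 and -0.82 (SE 0.082, adjusted p = 9.93e-07) for Dusp16, with no overlap of the groups in either gene. The difference between the lines was -1.04 (SE 0.16, adjusted p = 3.99e-05) for DUSP10 and -1.11 (SE 0.204, adjusted p = 0.000216) for DUSP16. Mouse Dusp10 overlaps 1700056E22Rik on the opposite strand, which had 344 counts in the DMSO and 415 in the ponatinib libraries. Whether strand was used in counting is not given in the sources used here, so reads of such partners may not be told apart.

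Of the KIM phosphatases, PTPN5 and PTPN7 were detected in 4T1 and barely in MDA-MB-231. PTPN5, known as a striatum-enriched phosphatase of ERK and p38 in neurons, had 0 counts in the 3 DMSO libraries of MDA-MB-231 and 1 count in the ponatinib libraries. For a gene with 0 counts in this group, 3 counts would correspond to 0.0646 CPM. In 4T1, where the transcript lies at chr7:46727541-46782610 (minus strand, GRCm39), Ptpn5 measured 37.5, 29.7 and 32.3 CPM with DMSO and 3.43, 2.95 and 3.25 CPM with ponatinib. The groups were far apart, a 10.3-fold fall from 33.2 ± 3.98 to 3.21 ± 0.243 CPM (SD, n = 3 each; log2 fold change -3.37, SE 0.139, adjusted p = 1.03e-10). Gm14377, a long noncoding gene that overlaps Ptpn5 on the opposite strand, had 253 counts with DMSO and 195 with ponatinib, beside 1788 and 184 counts for Ptpn5.

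PTPN7, a phosphatase of ERK and p38 known from blood cells, had 0 counts in the DMSO and 2 in the ponatinib libraries of MDA-MB-231. In that line neither PTPN5 nor PTPN7 was called by edgeR without the filter (adjusted p = 0.549 and 0.443), and DESeq2 gave them no adjusted p. In 4T1 Ptpn7 had 12, 21 and 21 counts with DMSO and 0, 1 and 1 with ponatinib. The ratio of the summed counts per scaled total, 54 against 2, was 28.7 in favour of DMSO. Its 95% Clopper-Pearson interval was 7.58 to 243 and covers counting error only. The gene was called lower by edgeR (adjusted p = 3.55e-05). It passed the filter on low counts only through its DMSO libraries, so that it had to differ. Of 4 leukocyte markers, Cd3e and Itgam were at 0 counts in all 4T1 libraries, Ptprc averaged 0.111 CPM with DMSO and 0.0341 CPM with ponatinib, and Cd68 averaged 1.88 and 1.54 CPM. The summed level of the 4 was 1.64 to 2.44 CPM with DMSO and 1.23 to 2.01 CPM with ponatinib, and its part in the result for Ptpn7 was not tested. PTPRR, a receptor-type phosphatase of ERK, was detected at a low level in both lines and called in neither. It measured 2.92, 2.91 and 3.78 CPM with DMSO and 3.97, 4.08 and 2.46 CPM with ponatinib in MDA-MB-231 (log2 fold change 0.12, 95% interval -0.41 to 0.65, adjusted p = 0.698). In 4T1 the values were 2.10, 1.39 and 2.30 CPM against 1.28, 1.76 and 1.52 CPM (log2 fold change -0.35, 95% interval -0.95 to 0.26, adjusted p = 0.309). The ranges overlapped in both lines, and the intervals allow changes in either direction.

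**Figure D2:**
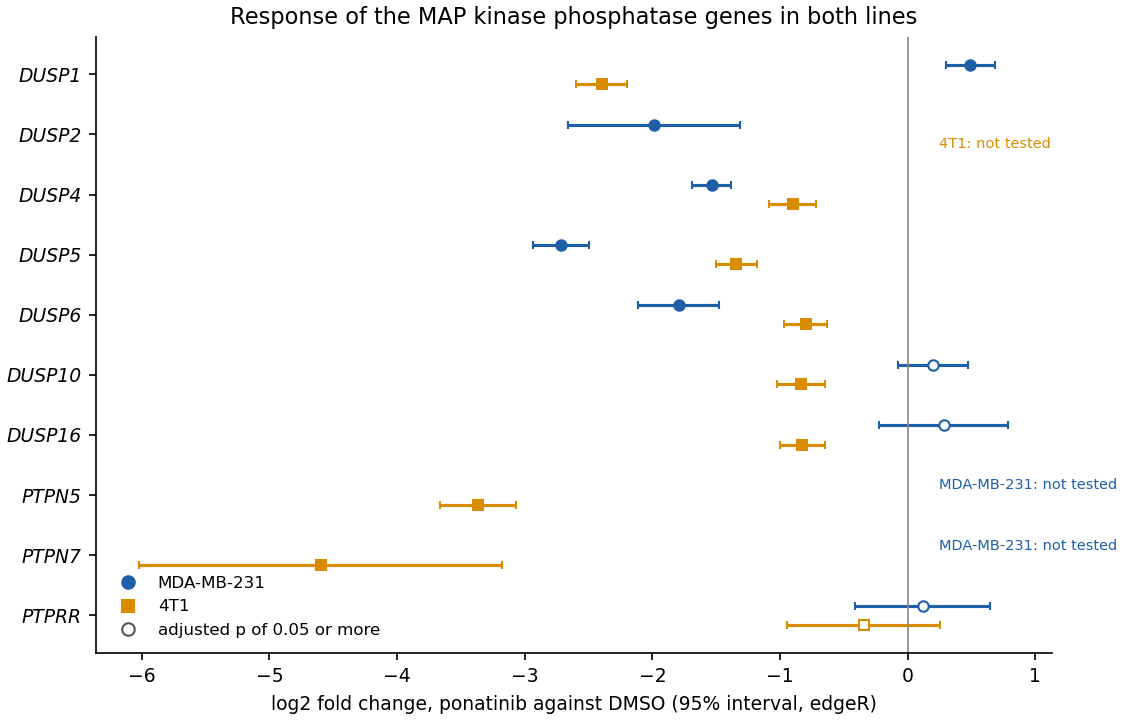
Log2 fold change of each member, ponatinib against DMSO (x axis), with its 95% interval from edgeR, for MDA-MB-231 (blue circles) and 4T1 (orange squares); open symbols have an adjusted p of 0.05 or more and members with too few counts are marked as not tested. DUSP4, DUSP5 and DUSP6 lie farther to the left in MDA-MB-231, whereas DUSP1, DUSP10 and DUSP16 lie to the left of 0 in 4T1 and to its right in MDA-MB-231, where of these DUSP1 alone was called.

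Set side by side, the response of 6 of the 7 members tested in both lines differed between the lines, where 51.5% of the 9838 genes with the same symbol in both species did. The 6 fell into 2 patterns. DUSP4, DUSP5 and DUSP6 fell in both lines and more so in MDA-MB-231, with differences of 0.64 to 1.37 on the log2 scale. DUSP1, DUSP10 and DUSP16 fell in 4T1 and were not called lower in MDA-MB-231, with differences from -2.89 to -1.04. For PTPRR the difference was -0.46 (95% interval -1.23 to 0.30, adjusted p = 0.3). These comparisons are between the fold changes of separate species and count tables, each scaled within its own line.

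The make-up of the phosphatase transcripts was compared per length, as CPM per kilobase of the canonical transcript. In MDA-MB-231 treated with DMSO, DUSP4 led with a mean of 79.2 CPM per kilobase, followed by DUSP1 (65.0), DUSP6 (40.7), DUSP5 (28.5) and DUSP10 (11.5), and the ranges of these neighbours did not overlap. DUSP2, PTPRR and DUSP16 were at 2.25, 0.934 and 0.372 CPM per kilobase. With ponatinib, DUSP1 led with 91.4, followed by DUSP4 with 27.3, whereas DUSP10 (13.2) and DUSP6 (11.7) had overlapping ranges. DUSP5 followed at 4.35 CPM per kilobase, and PTPRR (1.02) stood above DUSP16 (0.451), while DUSP2 (0.573) overlapped both.

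The sum over the 10 members was 214 to 237 CPM per kilobase in the DMSO libraries of MDA-MB-231 and 139 to 157 in the ponatinib libraries. DUSP1 made up 27.2% to 29.2% of it with DMSO and 59.8% to 61.6% with ponatinib, while DUSP4 made up 32.8% to 37.7% with DMSO and 17.3% to 19.6% with ponatinib. The levels of DUSP4, DUSP6 and DUSP5 thus fell in this line, and the largest share of the sum with ponatinib was DUSP1. These shares describe transcripts and depend on the transcript length taken for each gene.

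In 4T1 the order with DMSO was Dusp6 (147 CPM per kilobase), Dusp5 (112), Dusp4 (98.3), Dusp1 (35.5), Dusp10 (18.2), Dusp16 (15.4) and Ptpn5 (10.1), with no overlap between neighbours. Ptprr (0.528), Ptpn7 (0.303) and Dusp2 (0.180) were lowest, and the ranges of the last pair overlapped. With ponatinib, Dusp6 stayed first (84.4), Dusp4 (52.7) stood above Dusp5 (44.01), and Dusp1 (6.74) came after Dusp10 (10.2) and Dusp16 (8.69). The sum over the members was 414 to 457 CPM per kilobase with DMSO and 198 to 225 with ponatinib, of which Dusp6 held 33.2% to 33.9% and then 39.5% to 41.1%. The leading transcript was thus Dusp6 under both treatments in 4T1, whereas in MDA-MB-231 it was DUSP4 with DMSO and DUSP1 with ponatinib.

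**Figure D3:**
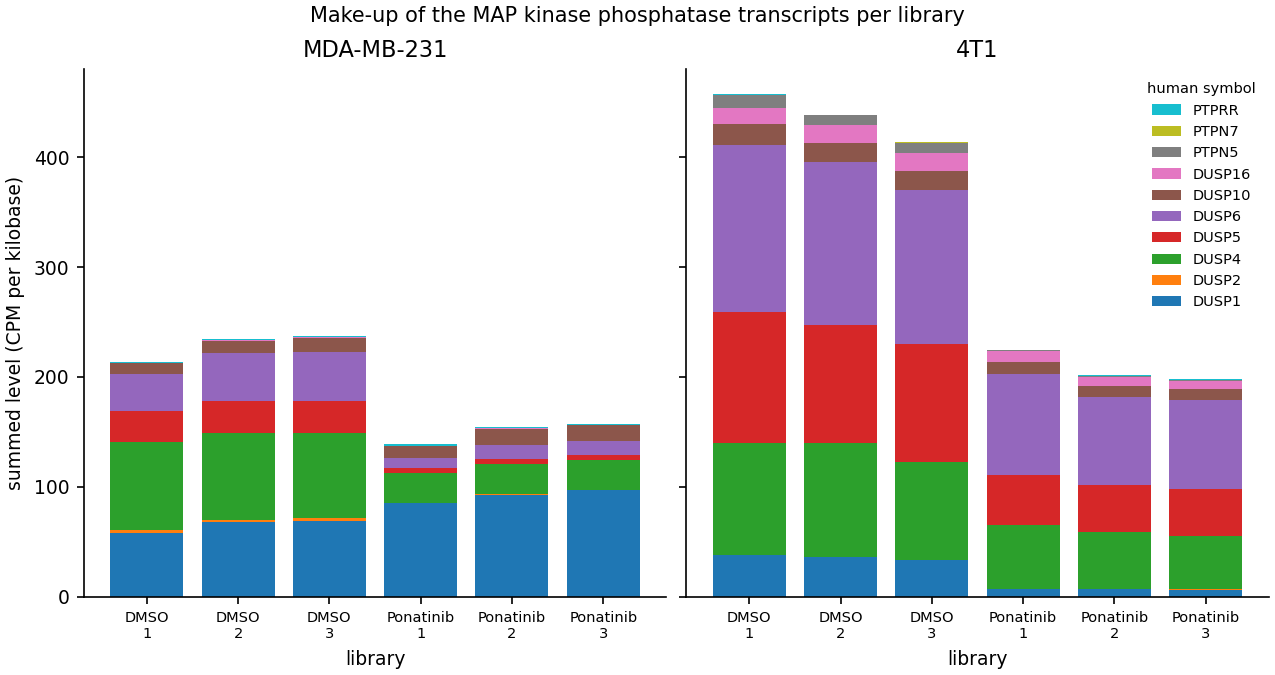
Summed level of the 10 MAP kinase phosphatase transcripts in each library (y axis, CPM per kilobase of canonical transcript, bars from 0), stacked by gene, for MDA-MB-231 on the left and 4T1 on the right. The DUSP1 segment grows in the MDA-MB-231 ponatinib libraries while the total falls from 214 to 237 to 139 to 157, and all large segments shrink in 4T1, where the total falls from 414 to 457 to 198 to 225.

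Genes that followed DUSP6 most closely across the 12 libraries were sought among 7403 genes with the same symbol and at least 10 CPM in both lines, by the distance of log2 CPM values centred on the DMSO mean of each line. The closest were TGFA, which encodes a ligand of the EGF receptor (distance 0.46), DTL, a substrate receptor of a ubiquitin ligase (0.593), SSR3, a subunit of the translocon-associated protein complex (0.634), ATAD2, a bromodomain protein (0.701), and DUSP4 itself (0.72). TGFA had log2 fold changes of -1.82 (MDA-MB-231) and -0.91 (4T1), beside -1.79 and -0.80 for DUSP6. Among the other members DUSP5 ranked 329, DUSP10 ranked 4004 and DUSP1 ranked 6701 by this distance.

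Of other phosphatases of the family or of MAP kinases, 6 of the 15 tested fell in MDA-MB-231 and 1 rose, beside 26.8% lower and 27.2% higher among all tested genes. In 4T1 10 of 15 fell and 3 rose, beside 29.4% and 29.5%, and the difference between the lines in these counts was not tested. The median log2 fold changes were -0.21 and -0.36. The 1 that rose in MDA-MB-231 was DUSP8 (log2 fold change 0.63, adjusted p = 0.016), which DESeq2 did not call. DUSP7, a cytoplasmic ERK phosphatase related to DUSP6, fell in both lines, from 99.97 ± 4.68 to 53.0 ± 4.59 CPM in MDA-MB-231 (log2 fold change -0.91, adjusted p = 4.82e-06) and from 66.2 ± 11.7 to 38.8 ± 4.23 CPM in 4T1 (-0.77, adjusted p = 6.06e-05; SD, n = 3 each). In MDA-MB-231, PPP2CA and PPP2CB, the catalytic subunits of protein phosphatase 2A, had log2 fold changes of -0.85 and -0.66, and DUSP12 had -0.34 (adjusted p = 1.89e-06, 4.69e-05 and 0.00308). In 4T1, Dusp9, an ERK phosphatase related to Dusp6, fell from 14.2 ± 0.886 to 3.46 ± 0.917 CPM (log2 fold change -2.04, adjusted p = 1.89e-07) and Dusp8, a JNK and p38 phosphatase, from 31.6 ± 3.16 to 12.9 ± 1.45 CPM (-1.29, adjusted p = 4.18e-07; SD, n = 3 each). Dusp28 rose to 10.5 ± 0.451 from 5.60 ± 1.60 CPM (SD, n = 3 each; log2 fold change 0.91, adjusted p = 0.000447), and Dusp19 and Dusp14 were the others that rose, with log2 fold changes of 1.22 and 0.26 (adjusted p = 0.000883 and 0.0269).

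The substrates of these phosphatases, the MAP kinases, and the MAP2Ks that activate them changed in both directions. In MDA-MB-231, 8 of 16 tested fell and 4 rose (median log2 fold change -0.23), where 26.8% and 27.2% of all tested genes did. Scaling by total counts instead of TMM left 5 that fell. MAPK3, which encodes ERK1, rose from 80.6 ± 5.65 to 139 ± 4.99 CPM (SD, n = 3 each; log2 fold change 0.79, adjusted p = 7.71e-06), and MAP2K1, which encodes the ERK kinase MEK1, fell from 68.2 ± 6.95 to 38.5 ± 3.72 CPM (log2 fold change -0.82, adjusted p = 4.13e-05). MAP2K6, a p38 kinase gene, had 6, 8 and 5 counts with DMSO and 183, 189 and 239 with ponatinib (0.410 ± 0.102 and 12.2 ± 0.787 CPM, SD, n = 3 each, log2 fold change 4.88). It passed the filter on low counts only through the ponatinib libraries, so that it had to differ, and with at least 10 counts in every library 3 of 15 rose. MAP2K5, the kinase of ERK5, had a log2 fold change of 0.86 (adjusted p = 8.55e-05). The other that rose was MAP2K2, the gene of the ERK kinase MEK2 (0.52, adjusted p = 0.00442). In 4T1, 5 of 15 fell and 4 rose (median log2 fold change -0.055), shares near the 29.4% and 29.5% of all tested genes, and 3 fell with total counts. The 4 with the largest log2 fold changes there were small beside those of the members, at -0.54 for Map2k4, -0.51 for Mapk8, 0.46 for Mapk9 and -0.39 for Map2k6 (adjusted p = 2.39e-05, 0.000423, 0.00098 and 0.000788). Map2k1 and Map2k3 were the others that fell, and Mapk11, Mapk14 and Map2k5 the others that rose, with log2 fold changes between -0.28 and 0.38.

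Most of the listed genes transcribed downstream of ERK, other than the phosphatases, fell in each line. In MDA-MB-231, 7 of 8 fell (26.8% of all tested genes) and all 8 log2 fold changes were below 0, with a median of -1.81. SPRY2 was not called (-0.26, adjusted p = 0.12), and EPHA4 passed narrowly (-0.40, adjusted p = 0.0481). The count that fell was 6 with DESeq2, with total counts and with at least 10 counts in every library. It was 8 without the filter on low counts and with the replicate block. The ETS factors ETV4 and ETV5 had log2 fold changes of -3.62 and -2.91, SPRY4, an inhibitor of receptor signalling, had -3.12, and CCND1, which encodes cyclin D1, had -1.98 (adjusted p = 1.5e-09, 6.58e-09, 9.45e-09 and 1.55e-08). In 4T1, 7 of 8 fell (29.4% of all tested genes), with a median of -0.94, and Epha4 rose by 0.26 (adjusted p = 0.0322, a call that DESeq2 did not make). Etv4, Epha2, Spry2 and Etv5 had log2 fold changes of -1.46, -1.11, -0.96 and -0.96 (adjusted p = 1.1e-09, 2.55e-07, 1.21e-06 and 2.08e-06). DUSP6 had log2 fold changes of -1.79 and -0.80 in the same lines. This list was written with earlier results of these data known and is no independent evidence of its direction.

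**Figure D4:**
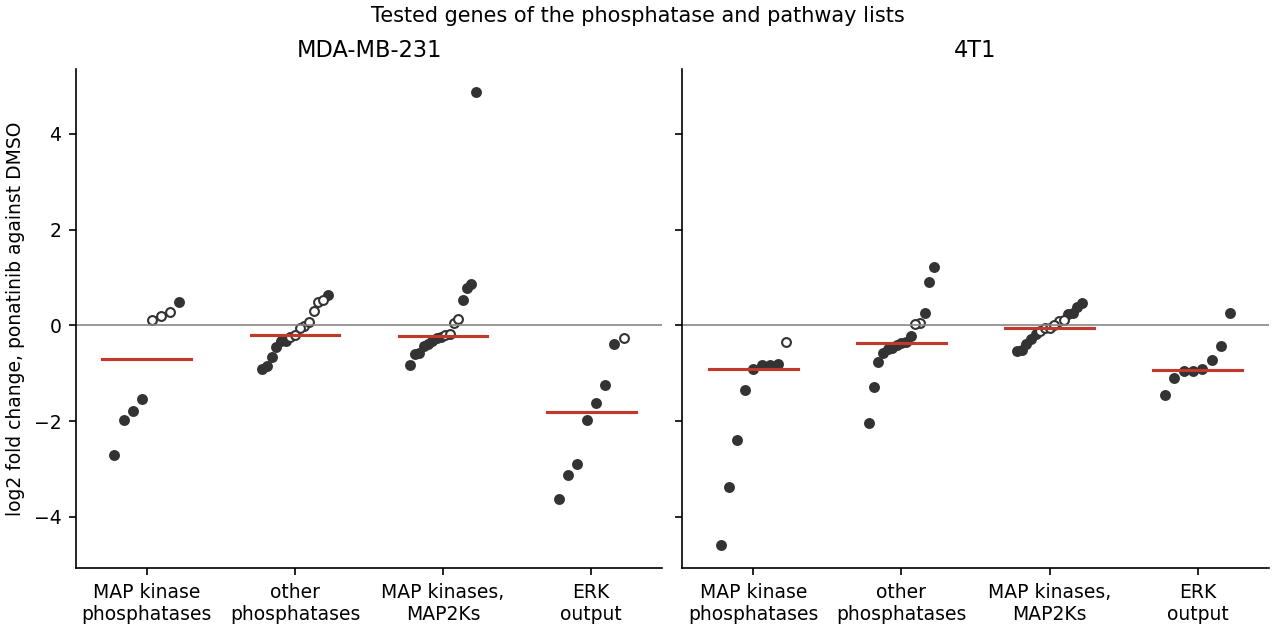
Log2 fold change, ponatinib against DMSO (y axis), of each tested gene of the 4 lists in MDA-MB-231 on the left and 4T1 on the right; filled points have an adjusted p under 0.05, open points do not, and red lines are list medians. The medians of the MAP kinase phosphatases are -0.71 and -0.90 and those of the ERK output genes -1.81 and -0.94, and the highest point in MDA-MB-231 is MAP2K6 at 4.88.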

How the data were processed

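RNA-seq libraries of MDA-MB-231 and 4T1 cells, 3 with DMSO and 3 with ponatinib per line, were grouped by their labels. Per the labels and the study's methods, TRIzol RNA was made into libraries with a NEBNext Ultra kit, adapters and poly-N reads were removed, and reads were aligned with HISAT2 to hg38 or GRCm39 and counted with HTSeq. The deposited values are the authors' raw counts per gene, not normalized. Tool versions, the gene annotation and the strand setting are not given in the sources used here. The authors' own tests used DESeq2.

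Identifiers were matched to GENCODE v44 (52181 of 63677 human) and vM39 (43465 of 47729 mouse), which gave symbols and canonical transcripts; DUSP14 of human was not matched. Genes passing filterByExpr were scaled by TMM and tested by the quasi-likelihood test of edgeR 4.0.16 in R 4.3.3, with p-values adjusted after Benjamini and Hochberg over all genes tested, for each line apart, and as the interaction of line and treatment over genes with the same symbol in both species. The likeness to DUSP6 used log2 of CPM plus 1. Between replicates, the common biological coefficient of variation came to 0.0990 for MDA-MB-231 and 0.0869 for 4T1. Intervals and floors of low counts cover counting error only. The edgeR fits of each line and of the interaction were run on simulated counts, in which far fewer genes changed than were called here. The other steps were not tested in this way.

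The members and lists were chosen with earlier results of these data known. All 10 members are named, and per list and line up to 4 called genes with the largest absolute log2 fold change and at least 10 CPM in the higher group. DUSP8, Dusp14, Dusp19, MAP2K2, Map2k1, Map2k3, Mapk11, Mapk14, Map2k5, SPRY2, EPHA4 and Epha4 were named after their values were seen. The marker genes were named to check the labels of the lines. A further leukocyte marker was left out of these lists and is not reported here. Human promoters are RefSeq sequences (GRCh38.p14), and mouse promoters were read from GRCm39 at canonical GENCODE starts. Replicate numbers were checked for pairing by correlating deviations from the group means (MDA-MB-231: 0.498, 0.175, 0.218; 4T1: 0.278, 0.185, 0.153). All were above 0.1, and on these values alone like-numbered libraries were treated as pairs in the replicate block and in the counts of pairs. The main tests did not use the pairing. No library was a copy of another (chi-square per gene between replicates 2.98 to 16.2). Alternatives were DESeq2 1.42.0, its size factors in edgeR, total counts, a minimum of 10 counts in every library, no filter, the replicate block, each library left out, an adjusted p under 0.01, and an unadjusted p under 0.05 with at least a 1.5-fold change.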

Additional observations from a re-analysis of the deposited data

Results flagged for a closer look

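The ponatinib responses of 6 of the 7 members tested in both lines differed between the lines in edgeR's interaction test. Among all 9838 genes with the same symbol in both species, 51.5% did. The difference of log2 fold changes, 4T1 minus MDA-MB-231, was -2.89 for DUSP1, -1.04 for DUSP10 and -1.11 for DUSP16, which fell in 4T1 and were not called lower in MDA-MB-231. It was 0.64 for DUSP4, 1.37 for DUSP5 and 0.99 for DUSP6, which fell more in MDA-MB-231. Over 18 settings the adjusted p stayed at or below 0.00169 for these 6, and their differences ranged from -2.94 to -2.80 for DUSP1, -1.16 to -0.95 for DUSP10, -1.23 to -0.96 for DUSP16, 0.56 to 0.70 for DUSP4, 1.32 to 1.46 for DUSP5 and 0.85 to 1.12 for DUSP6.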

How the results depend on the processing

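The number of members called higher in MDA-MB-231 was the least stable count. It was 1 as reported, 2 with the replicate block, 1 to 2 with 1 library left out (2, with DUSP10, without ponatinib replicate 1) and 0 under an unadjusted p under 0.05 with at least a 1.5-fold change. In these cases the difference came from DUSP10 and DUSP1. The other counts of members called lower, higher or different between the lines stayed within 1.5 times the reported count in every alternative run, and the block changed no other call of a member. PTPRR in MDA-MB-231, not called, had a log2 fold change of 0.12 that ranged from -0.006 without ponatinib replicate 2 to 0.328 without ponatinib replicate 3, with 1 library left out. Called log2 fold changes kept their sign, from 0.40 to 0.59 for DUSP1 in MDA-MB-231 and from -2.45 to -2.28 for Dusp1 in 4T1. Scaling by total counts moved the median over all genes by about 0.1, to 0.111 (MDA-MB-231) and 0.117 (4T1), and lowered the count of MAP kinases and MAP2Ks that fell from 8 to 5 and from 5 to 3. DESeq2 called 0 in place of 1 of the other phosphatases higher in MDA-MB-231, and 0 in place of 1 of the ERK output genes higher in 4T1. Without the filter on low counts 9 members were lower in 4T1, Dusp2 among them (adjusted p = 0.0334; 0.0899 with DESeq2). Depth limits Dusp2 in 4T1 and PTPN5 and PTPN7 in MDA-MB-231, which have few counts.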
